A study of Arabidopsis thaliana with 12 samples.

Results

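The growth-regulating factors (GRFs) of Arabidopsis thaliana are a family of 9 plant transcription factor genes, GRF1 (AT2G22840), GRF2 (AT4G37740), GRF3 (AT2G36400), GRF4 (AT3G52910), GRF5 (AT3G13960), GRF6 (AT2G06200), GRF7 (AT5G53660), GRF8 (AT4G24150) and GRF9 (AT2G45480). They were picked by locus, so that the 14-3-3 genes that carry the same symbols (GENERAL REGULATORY FACTOR) stayed apart. All 9 genes were represented among the 25410 loci with a probe on the array, by 11 probes, of which GRF8 and GRF9 had 2 each. All 9 passed the filter on dim probes that left 20487 genes for testing. The family was chosen with its processed signals in the 4 groups already known, so its values are given as a description and no p-value is given for a member.

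GRF proteins bind DNA through a WRC domain and bind the coactivators GIF1 to GIF3 through a QLQ domain, and GIF1 (ANGUSTIFOLIA3) recruits SWI/SNF chromatin remodellers to target genes. The family promotes cell proliferation in young leaves and meristems. The microRNA miR396 cleaves the transcripts of GRF1 to GRF4 and GRF7 to GRF9, while those of GRF5 and GRF6 lack its target site. Cryptochromes CRY1 and CRY2 are the blue light receptors that restrain hypocotyl growth and promote greening of seedlings.

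RNA of whole seedlings was hybridised to 12 one-colour arrays, 3 in each of 4 groups. Wild type Col-0 and the cryptochrome double mutant cry1cry2 were each sown on agar that contained either the solvent dimethyl sulfoxide (DMSO) or 15 µM 3-bromo-7-nitroindazole (3B7N), which is known to inhibit mammalian nitric oxide synthase. The plates of all 4 groups were held cold and dark for 3 days and then lit for 4 days by unbroken blue light at 5 µmol m-2 s-1. The labels name neither the alleles of cry1cry2 nor the number of seedlings in a sample.

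Relative log2 signal, the scale used below, is the log2 processed intensity of a probe minus the 75th percentile of its array, so 0 is that percentile. Levels on this scale are compared between groups for 1 probe, never between probes, and only the marker sums below add several probes. The 75th percentile intensity ran from 883 (3B7N replicate 2) to 2333 (DMSO replicate 3) on wild type arrays. On cry1cry2 arrays it ran from 2567 (DMSO replicate 2) to 6794 (DMSO replicate 1), so every mutant array was brighter. The lowest intensity marked well above background was 11.8 to 23.5 over all arrays. A genotype difference at dim signal is thus also one between dimmer and brighter arrays. Of the probes 64.4% to 81.2% were well above background. No spot was saturated, and arrays of 1 group correlated at r of 0.979 to 0.993. CRY1 lay between 3.25 and 3.86 and CRY2 between 1.85 and 2.49 on the wild type arrays, against -9.85 to -7.73 and -8.94 to -8.59 on the mutant arrays, as the genotype labels say. The arrays lay on 3 slides. Slide 1 held all wild type DMSO arrays plus wild type 3B7N replicate 1, slide 2 held the other wild type 3B7N arrays and cry1cry2 DMSO replicates 1 and 2, and slide 3 held cry1cry2 DMSO replicate 3 and all cry1cry2 3B7N arrays. No slide held both genotypes on the same medium, so a genotype difference has no within-slide value.

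GRF7 stood out from the family: it was low in wild type on DMSO, higher in wild type on 3B7N, and highest in cry1cry2 on either medium. GRF7 is known as a repressor of DREB2A and other osmotic stress genes. On the wild type DMSO arrays its relative log2 signal was -6.65, -6.94 and -6.68, and its intensity was 19.5, 13.7 and 22.7. On wild type with 3B7N it was -1.93, -2.83 and -1.35, with intensities of 502.5, 124.1 and 795.9. The wild type groups did not overlap, and replicate 2 was the lowest of the 3B7N arrays, on the array with the lowest 75th percentile.

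In cry1cry2 on DMSO the relative log2 signal of GRF7 was -0.30, -0.50 and -0.14, with intensities of 5514, 1818 and 3820. In cry1cry2 on 3B7N it was 0.11, 0.10 and -0.25, with intensities of 3461, 4336 and 2681. The mutant groups overlapped each other and lay above both wild type groups. The order of the group means was therefore cry1cry2 3B7N at -0.01 ± 0.21, cry1cry2 DMSO at -0.31 ± 0.18, wild type 3B7N at -2.04 ± 0.75 and wild type DMSO at -6.76 ± 0.16 (SD, n = 3), and only the first and second of these did not separate.

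**Figure D1:**
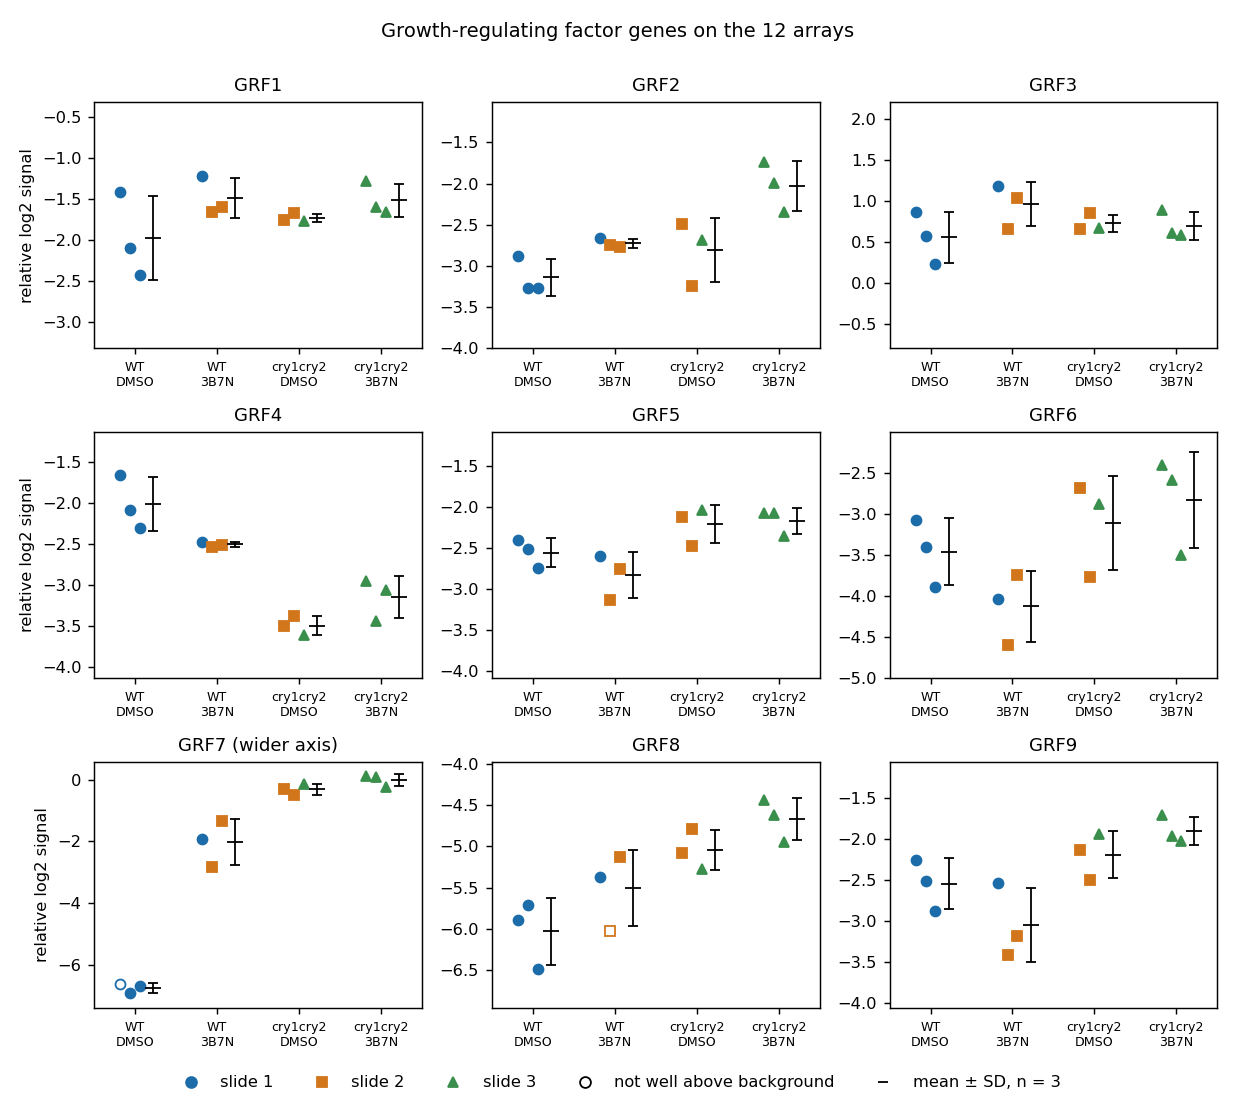
Relative log2 signal of the probe that stands for each GRF gene (vertical axis, log2 units, 0 is the array's 75th percentile) on the 12 arrays in 4 groups; marker shape and colour give the slide, open markers are not well above background, and black bars are mean ± SD of 3 arrays. Every panel spans the same range except GRF7, whose wild type DMSO arrays lie between -6.94 and -6.65 while its mutant arrays lie between -0.50 and 0.11.

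The signal of GRF7 in wild type on DMSO was close to the detection limit. Its spot was marked well above background on 2 of those 3 arrays, and the lowest intensity so marked on them was 20.7, 13.4 and 13.4. The fitted difference of 3B7N minus DMSO in wild type was 4.72 ± 0.29 (log2, SE), a 26.3-fold higher level, and cry1cry2 minus wild type on DMSO was 6.44 ± 0.29, an 87.1-fold higher level. With each wild type DMSO array raised to at least its lowest intensity above background, the folds were 25.8 and 85.4. On 3B7N the mutant exceeded wild type by 2.03 ± 0.29, or 4.07-fold, while 3B7N minus DMSO within cry1cry2 was 0.30 ± 0.29.

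**Figure D2:**
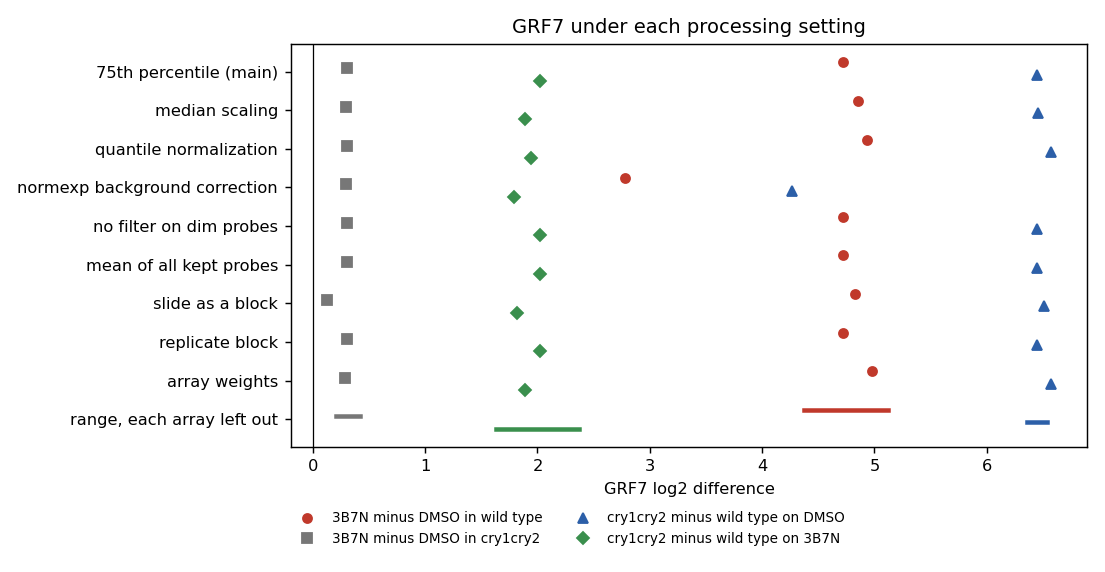
GRF7 log2 difference (horizontal axis) in the 4 comparisons under each processing setting (rows); markers are fitted values and the bars in the bottom row span the values with each array left out in turn. The normexp setting, which adds an offset of 50, moves the comparisons that involve wild type on DMSO, from 4.72 to 2.78 and from 6.44 to 4.27. Every value of GRF7 stays above 0.

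Both large differences were smaller with the normexp setting. That setting starts from the median spot intensity, subtracts background by normexp and adds an offset of 50, which compresses dim signals. With it GRF7 differed by 2.78 (6.86-fold) with 3B7N in wild type and by 4.27 (19.3-fold) between genotypes on DMSO. The separate parts of the input, the subtraction and the offset were not tested. On slide 1 alone, where 1 wild type 3B7N array met 3 DMSO arrays, GRF7 differed by 4.82. On slide 3, where 3 mutant 3B7N arrays met 1 DMSO array, it differed by 0.13.

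A gene was called where its adjusted p in the fit across all genes was under 0.05 and its difference was at least 2-fold. With 3B7N in wild type, 1 of the 9 GRF genes was called higher, GRF7, and none lower, beside 15% of all genes called in either direction (5.89% higher and 9.09% lower). With 3B7N in cry1cry2 none of the 9 was called, beside 3.73% of all genes (2.1% higher and 1.63% lower). Between genotypes on DMSO GRF7 was called higher and GRF4 lower, beside 19% of all genes (7.62% higher and 11.4% lower). Between genotypes on 3B7N GRF6, GRF7 and GRF9 were called higher and none lower, beside 7.28% of all genes (4.01% higher and 3.27% lower). The interaction, which is the 3B7N difference in cry1cry2 minus that in wild type, called GRF7 lower at -4.42 ± 0.42 and no other member, beside 18.6% of all genes (12.7% higher and 5.91% lower). These counts describe genes chosen on the same signals, and nothing about the family is read from them.

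**Figure D3:**
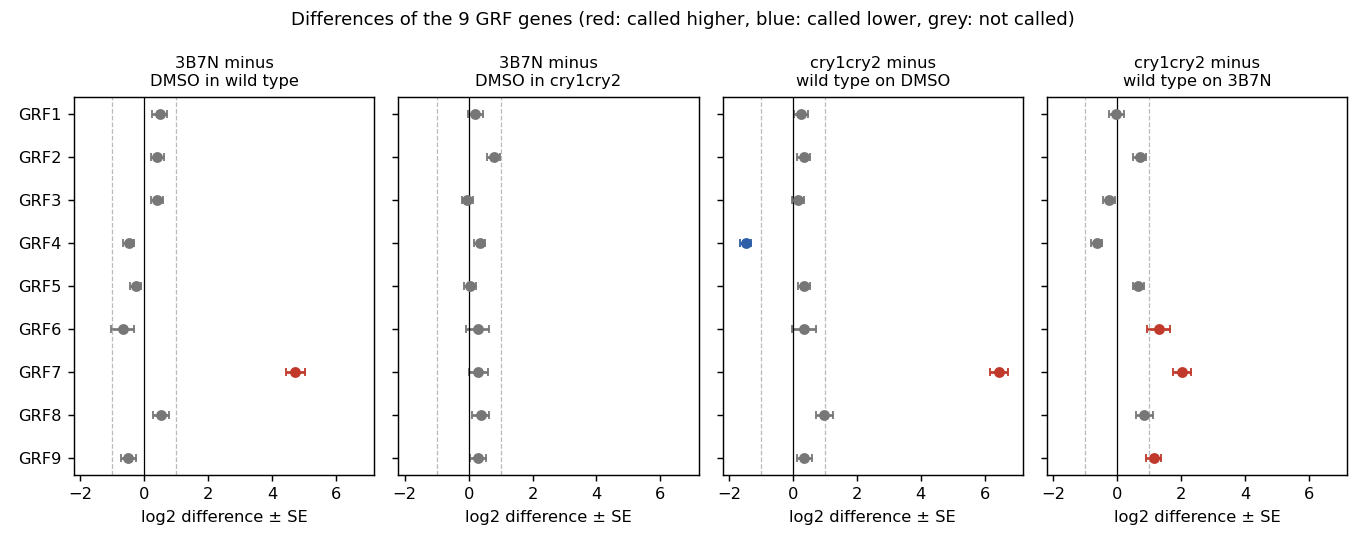
Fitted log2 difference with its SE (horizontal axis) for the 9 GRF genes in 4 comparisons; colour gives the call and dashed lines mark a 2-fold difference. GRF7 lies at 4.72, 0.30, 6.44 and 2.03 in the 4 panels, and the other 8 genes lie between -1.48 and 1.29.

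GRF1, GRF2 and GRF3 act redundantly to enlarge leaves and cotyledons, and none of the 3 was called in any comparison. GRF1 was at -1.41, -2.10 and -2.42 in wild type on DMSO and at -1.21, -1.66 and -1.60 on 3B7N. In cry1cry2 it was at -1.75, -1.67 and -1.76 on DMSO and at -1.28, -1.60 and -1.66 on 3B7N. Its wild type groups overlapped, as did the genotypes on either medium, and its difference with 3B7N was 0.49 ± 0.23 in wild type and 0.21 ± 0.23 in the mutant.

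GRF3 had the smallest span of the family over the 12 arrays, 0.94 log2 units from 0.24 to 1.18, and its 4 groups overlapped at every step of their order. In wild type it was at 0.86, 0.57 and 0.24 on DMSO and at 1.18, 0.66 and 1.04 on 3B7N. In cry1cry2 it was at 0.66, 0.85 and 0.67 on DMSO and at 0.89, 0.61 and 0.58 on 3B7N. The difference with 3B7N was 0.40 ± 0.18 in wild type and -0.04 ± 0.18 in cry1cry2.

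GRF2 was highest in cry1cry2 on 3B7N. There it was at -1.74, -2.00 and -2.34, above all arrays of the other 3 groups. It was at -2.50, -3.25 and -2.68 in the mutant on DMSO, where replicate 2 stood lower than its partners. In wild type it was at -2.88, -3.27 and -3.27 on DMSO and at -2.67, -2.75 and -2.77 on 3B7N, so 3B7N arrays lay above DMSO arrays in both genotypes. The fitted differences with 3B7N were 0.41 ± 0.21 in wild type and 0.78 ± 0.21 in cry1cry2, under 2-fold in both.

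GRF4 was the only member whose highest group was wild type on DMSO. In rice its counterpart is known for raising nitrogen use and grain size. GRF4 was at -1.66, -2.09 and -2.31 in wild type on DMSO and at -2.47, -2.54 and -2.51 on 3B7N. In cry1cry2 it was at -3.50, -3.38 and -3.61 on DMSO and at -2.95, -3.44 and -3.07 on 3B7N. Wild type arrays lay above mutant arrays on each medium, and the mutant groups overlapped. The genotype difference was -1.48 ± 0.18 on DMSO and -0.64 ± 0.18 on 3B7N, and the difference with 3B7N was -0.49 ± 0.18 in wild type and 0.35 ± 0.18 in cry1cry2. The genotype difference on DMSO ranged from -1.62 to -1.12 over 21 alternative settings and passed the call in 21 of 21. Some of these settings, such as leaving out a 3B7N array, could not change that difference.

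GRF5, which raises leaf cell number, and GRF6, the members whose transcripts lack the miR396 site, had their lowest mean in wild type on 3B7N. GRF5 was at -2.40, -2.51 and -2.74 in wild type on DMSO, at -2.59, -3.13 and -2.75 in wild type on 3B7N, at -2.12, -2.47 and -2.03 in cry1cry2 on DMSO and at -2.07, -2.07 and -2.35 in cry1cry2 on 3B7N. Only the genotypes on 3B7N did not overlap for GRF5, with a difference of 0.66 ± 0.18.

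GRF6 was at -3.08, -3.41 and -3.90 in wild type on DMSO, at -4.04, -4.60 and -3.74 in wild type on 3B7N, at -2.69, -3.77 and -2.88 in cry1cry2 on DMSO and at -2.40, -2.59 and -3.50 in cry1cry2 on 3B7N. Its arrays scattered most after those of GRF7, with a largest group SD of 0.59. The genotypes differed by 1.29 ± 0.36 on 3B7N and by 0.35 ± 0.36 on DMSO, and 3B7N minus DMSO was -0.67 ± 0.36 in wild type and 0.28 ± 0.36 in cry1cry2.

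GRF9, reported to restrict cell proliferation in leaves, also had its lowest mean in wild type on 3B7N. It was at -2.26, -2.51 and -2.88 in wild type on DMSO and at -2.54, -3.41 and -3.18 on 3B7N. In cry1cry2 it was at -2.14, -2.50 and -1.94 on DMSO and at -1.71, -1.97 and -2.03 on 3B7N. On 3B7N every mutant array lay above every wild type array, and the difference was 1.14 ± 0.24, while the genotypes overlapped on DMSO, where it was 0.35 ± 0.24. With slide as a block these differences were 1.01 and 0.98, so the contrast between media depended on the setting. The other GRF9 probe gave 0.91 and 0.34 for the same comparisons.

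The calls of GRF6 and GRF9 between genotypes on 3B7N were lost in several settings. Both were lost without wild type 3B7N replicate 2 (1.06 for GRF6 and 0.96 for GRF9), with normexp (0.64 and 0.68) and with slide as a block (0.99 and 1.01), and GRF6 was also lost without cry1cry2 3B7N replicate 1 (1.08) or 2 (1.18). On slide 1 the 1 wild type 3B7N array and the 3 DMSO arrays differed by 0.0061 for GRF9, against -0.50 ± 0.24 over all slides. The GRF7 call on 3B7N held in 19 of 20 settings and was lost with slide as a block, at 1.81. No slide held both genotypes on 3B7N, and with slide as a block 46 of all genes were called there in place of 1491. A call lost in that setting therefore does not show that the slide moved the value.

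GRF8 was dim on all arrays. It was at -5.89, -5.71 and -6.49 in wild type on DMSO, at -5.38, -6.03 and -5.13 in wild type on 3B7N, at -5.08, -4.78 and -5.27 in cry1cry2 on DMSO and at -4.44, -4.61 and -4.95 in cry1cry2 on 3B7N. Mutant arrays lay above wild type arrays on each medium, by 0.99 ± 0.26 on DMSO and 0.84 ± 0.26 on 3B7N, both under 2-fold, and the first of these passed the call in 5 of 20 alternatives. The second GRF8 probe was well above background on 1 of the 3 wild type 3B7N arrays, on 0 of 3 in wild type with DMSO and on 2 of 3 in cry1cry2 with DMSO. It gave 0.04 on DMSO, a difference between values near the detection limit, and 0.57 on 3B7N. With normexp the first probe gave -0.26 between genotypes on 3B7N, the opposite direction.

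Over the family the median difference was 0.40 with 3B7N in wild type, 0.29 with 3B7N in cry1cry2, 0.35 between genotypes on DMSO and 0.70 between genotypes on 3B7N. The medians over all 20487 genes were -0.06, 0.04, -0.0046 and 0.05. Groups did not overlap for 2 higher and 1 lower member with 3B7N in wild type, where 21.7% of all genes were higher without overlap and 28.2% lower. They did not overlap for 2 higher members in cry1cry2 (17.2% higher and 11.4% lower of all genes), for 2 higher and 1 lower between genotypes on DMSO (26.2% and 29.7%), and for 6 higher and 1 lower between genotypes on 3B7N (22.8% and 19.2%). The comparisons share arrays pairwise, since each group enters a medium and a genotype comparison.

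The 7 members with a miR396 site ranged from -0.50 to 4.72 with 3B7N in wild type, with a median of 0.41, and GRF5 and GRF6 were at -0.27 and -0.67. Between genotypes on DMSO the 7 ranged from -1.48 to 6.44, with a median of 0.33, and GRF5 and GRF6 were both at 0.35. The genes MIR396A and MIR396B had no probe on the array. The bHLH74 transcription factor gene, another transcript that miR396 targets, was 0.55 higher in cry1cry2 than in wild type on DMSO (limma, adjusted p = 0.00671), under 2-fold.

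Over the 12 arrays some members varied together. Pearson's r was 0.95 for GRF5 and GRF9, 0.93 for GRF5 and GRF6, 0.87 for GRF6 and GRF9, 0.85 for GRF1 and GRF3, and 0.84 for GRF7 and GRF8, and it was -0.86 for GRF4 and GRF7. These are the extremes of 36 pairs, and the points share 4 groups, 3 slides and the scaling of each array. GRF5 and GRF9 were also among the 3 named genes most like each other of all genes tested, and GRF5 was among the 3 most like GRF6.

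The genes with a symbol whose pattern over the 12 arrays was most like that of GRF7 were PIF3, a phytochrome-interacting bHLH factor (r = 0.992), the sulfate transporter gene SULTR3;2 (0.991) and SPATULA (SPT), a bHLH factor that limits leaf size (0.983). SPT was at -1.27 ± 0.13 in wild type on DMSO, 0.75 ± 0.21 in wild type on 3B7N, 1.01 ± 0.16 in cry1cry2 on DMSO and 1.28 ± 0.07 in cry1cry2 on 3B7N (SD, n = 3). PIF3 differed by 1.17 with 3B7N in wild type and by 1.59 between genotypes on DMSO, and SULTR3;2 by 2.63 and 3.68. For GRF4 the most alike were the zinc finger gene ZFN1 (0.989), SPA3, a partner of the COP1 ubiquitin ligase (0.984), and HDS of plastid isoprenoid synthesis (0.983). ZFN1 and SPA3 differed by -1.88 and -1.63 between genotypes on DMSO.

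For the other members the highest r was 0.932 for GRF1 (NERD, then UPL7 and EIP9), 0.980 for GRF2 (FUC95A, then TRZ4 and WAK1) and 0.918 for GRF3 (HON5, then PUB8 and the leaf polarity gene PHB). LON4 and RPA1A followed GRF9 for GRF5, with 0.944 and 0.941. The glucosinolate transporter gene GTR2 (0.935) and RIC7 (0.923) stood beside GRF5 for GRF6. LATE, SULTR4;2 and CYP721A1 were most like GRF8 (0.926, 0.923 and 0.917), and ARAD2 and DML2 came after GRF5 for GRF9 (0.931 and 0.924). These values rank genes over the same 12 arrays and carry no test.

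Of the 18 nearest annotated genes with a kept probe on either side of the 9 GRF genes, 1 was called in each of the 4 comparisons and 3 in the interaction, beside 15%, 3.73%, 19%, 7.28% and 18.6% of all genes. Neither neighbour of GRF7 was called in any comparison, and they differed by -0.32 (AT5G53650) and -0.67 (AT5G53700) with 3B7N in wild type and by 0.13 and 0.0025 between genotypes on DMSO. The neighbour of GRF2 on 1 side is AINTEGUMENTA (ANT), itself a promoter of organ growth, which fell by 1.14 with 3B7N in wild type. The gene next to GRF8, AT4G24140, rose by 2.03 with 3B7N in cry1cry2, ELF8 next to GRF6 was 1.22 higher in cry1cry2 on DMSO, and bZIP6 next to GRF1 was 1.32 higher in cry1cry2 on 3B7N. ELF8 was 0.37 higher with the mean of its kept probes, which ended its call, and the bZIP6 call held in 8 of 21 alternatives. bZIP6 lost it without any 1 of wild type 3B7N replicates 1, 2 and 3, wild type DMSO replicate 3, cry1cry2 DMSO replicate 3 and cry1cry2 3B7N replicates 1 and 3 (1.07 to 1.44).

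No coactivator or chromatin partner gene of the GRF proteins passed both thresholds in the main fit. Under the alternatives GIF1 was called between genotypes on DMSO with array weights. Without wild type DMSO replicate 1, BSH was called with 3B7N in wild type and in the interaction. GIF1 was at 1.11 ± 0.08 in wild type on DMSO, 0.56 ± 0.20 in wild type on 3B7N, 0.25 ± 0.27 in cry1cry2 on DMSO and 0.31 ± 0.39 in cry1cry2 on 3B7N (SD, n = 3). The difference between genotypes on DMSO was -0.86 ± 0.20 for GIF1 (limma, adjusted p = 0.00488), under 2-fold. GIF2 and GIF3 had smallest adjusted p-values of 0.664 and 0.209 over the 5 comparisons. None of the 11 SWI/SNF subunit genes was called by limma in any comparison of the main fit. With 3B7N in wild type 4 of the 11 had an adjusted p under 0.05, all at a difference under 2-fold, and 3 of them were higher. These were the ATPase genes SYD (0.84 ± 0.20, adjusted p = 0.00594) and BRM (0.50 ± 0.17, adjusted p = 0.0316), and SWI3C (0.39 ± 0.13, adjusted p = 0.0368). BSH was lower, at -0.72 ± 0.26 (adjusted p = 0.0445). SWP73B was 0.71 lower in cry1cry2 on 3B7N, at a difference of -0.71 ± 0.15 (adjusted p = 0.00832).

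Of the 7 genes reported as targets of GRF proteins or GIF1, several were called. With 3B7N in wild type 3 were called higher and none lower, beside 5.89% and 9.09% of all genes. Without the 2-fold threshold, 6 of the 7 had an adjusted p under 0.05 there by limma, 4 of them higher. CRF2 (-0.88) and ARR4 (-0.48) were lower. Between genotypes on DMSO 3 were called higher and 2 lower in cry1cry2, beside 7.62% and 11.4% of all genes. HEC1, a bHLH gene, was at -3.29 ± 0.22 on DMSO and -0.36 ± 0.21 on 3B7N in wild type, and at -0.37 ± 0.36 and 0.24 ± 0.09 in cry1cry2 (SD, n = 3). Like GRF7, HEC1 was lowest in wild type on DMSO, and its other 3 groups lay well above. It rose by 2.92 ± 0.19 with 3B7N in wild type (limma, adjusted p = 2.16e-06) and was 2.91 ± 0.19 higher in cry1cry2 on DMSO (adjusted p = 6.71e-07), in 21 of 21 alternatives for both.

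COL5, a CONSTANS-like gene, rose by 1.53 ± 0.20 with 3B7N in wild type (adjusted p = 0.000164) and was 1.22 ± 0.20 higher in cry1cry2 on DMSO (adjusted p = 0.000462). The latter call was lost with slide as a block (1.02, adjusted p = 0.0924). DREB2A, which GRF7 is known to repress, was at 3.00 ± 0.87 in wild type on DMSO and 4.49 ± 0.47 on 3B7N, and at 4.26 ± 1.06 and 3.85 ± 0.65 in cry1cry2 (SD, n = 3). It rose by 1.50 ± 0.55 with 3B7N in wild type (adjusted p = 0.0487), and that call held in 6 of 21 alternatives.

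The KNOX gene KNAT2 was 1.08 ± 0.24 higher in cry1cry2 on DMSO (adjusted p = 0.00395). The cytokinin response genes CRF2 and ARR4 were lower there, at -1.33 ± 0.19 (adjusted p = 0.00017) and -2.33 ± 0.17 (adjusted p = 1.4e-06), and ARR4 was also lower on 3B7N, at -1.32 ± 0.17 (adjusted p = 0.000787). KNAT2 lost its call with normexp (0.93), with array weights (0.94), without wild type DMSO replicate 1 (0.80, adjusted p = 0.0121) and, like CRF2, with slide as a block, where CRF2 was at -0.79. The call of ARR4 on 3B7N was lost with slide as a block too, at -1.26 (adjusted p = 0.303).

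**Figure D4:**
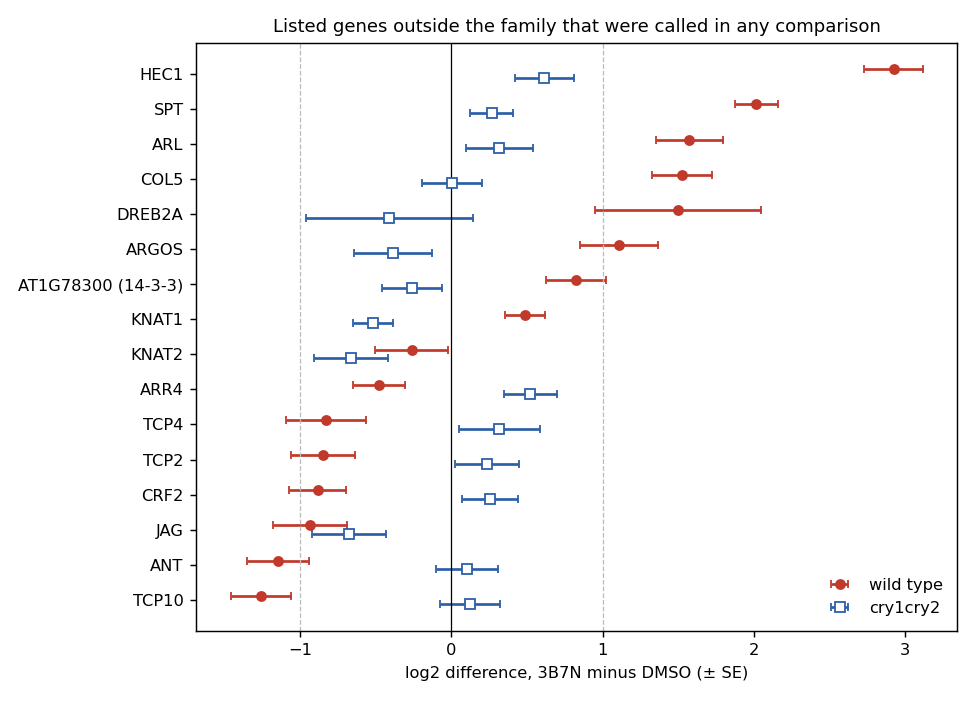
Fitted log2 difference of 3B7N minus DMSO with its SE (horizontal axis) in wild type (filled red circles) and cry1cry2 (open blue squares) for the listed genes outside the GRF family that were called in any comparison, the interaction included; dashed lines mark a 2-fold difference. HEC1, SPT, ARL, COL5, DREB2A and ARGOS were called higher in wild type and ANT and TCP10 lower, and no gene shown was called in cry1cry2.

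Among 17 other regulators of leaf size, 3 were called higher and 2 lower with 3B7N in wild type, beside 15% of all genes called. In cry1cry2 on DMSO 2 were higher and 3 lower, beside 19%. SPT rose by 2.02 ± 0.14 with 3B7N (limma, adjusted p = 3.16e-06) and was 2.28 ± 0.14 higher in the mutant (adjusted p = 4.68e-07). ARGOS, an auxin-induced gene that enlarges organs through ANT, rose by 1.11 ± 0.26 (adjusted p = 0.0056) and was 1.61 ± 0.26 higher in the mutant (adjusted p = 0.000431), and its relative ARL rose by 1.57 ± 0.22 (adjusted p = 0.000302). Both ARGOS calls were lost with slide as a block, at 0.88 and 1.15, and the first also without wild type 3B7N replicate 3 (0.87, adjusted p = 0.0203).

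ANT fell by 1.14 ± 0.21 with 3B7N in wild type (adjusted p = 0.00129). TCP10, of the class of TCP factors that limit leaf growth and raise miR396, fell by 1.26 ± 0.20 (adjusted p = 0.000614) and differed by -1.41 ± 0.20 between genotypes on DMSO (adjusted p = 0.000183). TCP4 of the same class differed by -1.05 ± 0.27 between genotypes on DMSO (adjusted p = 0.00789), and JAG, which promotes growth of lateral organs, by -1.16 ± 0.25 (adjusted p = 0.00264). With normexp ANT and TCP10 were at -0.99 and -0.98 with 3B7N and JAG was at -0.39, which ended those 3 calls. The TCP4 call held in 15 of 21 alternatives and was lost without wild type DMSO replicate 1 (-0.88) or cry1cry2 DMSO replicate 2 (-0.86), and with slide as a block both TCP4 (-0.97) and JAG (-1.50, adjusted p = 0.0536) lost theirs.

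In cry1cry2 none of the 49 listed genes outside the family was called with 3B7N by limma, while 9 had an unadjusted p under 0.05 and 3.73% of all genes were called. In wild type 6 were higher and 2 lower, a share close to the 15% of all genes. Between genotypes 5 were higher and 5 lower on DMSO, close to the 19% of all genes, and 2 were lower on 3B7N, where 7.28% of all genes were called. The median over the 49 was 0.15 with 3B7N in wild type and 0.06 in cry1cry2. The 14-3-3 genes with GRF symbols are phosphoprotein-binding proteins unrelated to the family. Of the 10 tested, 5 had a limma adjusted p under 0.05 with 3B7N in wild type, all higher and under 2-fold. Between genotypes on 3B7N 5 had one, all lower. Among these AT1G78300 was called, at -1.02 ± 0.20 between genotypes on 3B7N (adjusted p = 0.00552). That call held in 12 of 21 alternatives and was lost with slide as a block (-0.66, adjusted p = 0.613) and without wild type 3B7N replicate 1 or 2 or cry1cry2 3B7N replicate 1 or 3 (-0.99 to -0.88). The 14-3-3 gene of the same symbol as GRF7 (AT3G02520) differed by 0.50 ± 0.14 with 3B7N in wild type (adjusted p = 0.015), under 2-fold.

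Markers of dividing cells, where GRF genes are known to act, were set beside these values. Their unlogged signals were summed over 7 genes, so the sum mostly follows the brightest probe, that of KNOLLE. The sums below likewise mostly follow AS1 (young leaf), STM (shoot apex) and SCR with SHR (root tip), and do not stand for each marker. As log2, the sum was 2.69 to 2.90 in wild type on DMSO and 2.09 to 2.49 in wild type on 3B7N. In cry1cry2 it was 2.32 to 2.79 on DMSO and 2.09 to 2.47 on 3B7N. None of the 7 was called by limma with 3B7N in wild type, where 3 had an unadjusted p under 0.05. The same count had an adjusted p under 0.05 (the smallest was 0.00112) at a difference under 2-fold. Groups did not overlap for 5 lower markers, beside 28.2% of all genes. The cyclin gene CYCB1;1 was lower in cry1cry2 on DMSO, at -1.01 ± 0.17 (limma, adjusted p = 0.000525), a call that held in 16 of 21 alternatives. It was lost with normexp (-0.72, adjusted p = 0.089) and without wild type DMSO replicate 1 or 2 or cry1cry2 DMSO replicate 1 or 3 (-0.99 to -0.89).

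Young leaf markers summed to between 2.07 and 2.81 on all arrays, and none of 4 was called. Of the shoot apex markers CUC3 fell by 1.33 ± 0.22 with 3B7N in wild type (adjusted p = 0.000703), against a difference of -0.13 with normexp, and WUS was below the filter. Their sums over 4 genes were -1.49 to -1.31 in wild type on DMSO, -1.51 to -1.19 in wild type on 3B7N, -1.32 to -0.98 in cry1cry2 on DMSO and -1.88 to -1.66 in cry1cry2 on 3B7N. The 5 root tip markers summed to 2.19 to 2.77 in wild type on DMSO and to 2.30 to 2.72 in wild type on 3B7N. In cry1cry2 the sums were 2.11 to 2.30 on DMSO and 2.02 to 2.38 on 3B7N. PLT1 (-1.02 ± 0.26, limma, adjusted p = 0.0083) and PLT2 (-1.73 ± 0.28, adjusted p = 0.000425) were called lower in cry1cry2 on DMSO. SCR (-0.51 ± 0.19, adjusted p = 0.042) and WOX5 (-0.64 ± 0.24, adjusted p = 0.0464) were lower there by under 2-fold, and SHR was at 0.06. Both PLT calls were lost with normexp, where PLT1 was at -0.39 (adjusted p = 0.616) and PLT2 at -0.87 (adjusted p = 0.223). With slide as a block PLT1 was at -0.25 (adjusted p = 0.719) and PLT2 at -1.09 (adjusted p = 0.152), and without wild type DMSO replicate 1 or 2 or cry1cry2 DMSO replicate 2 or 3 PLT1 was under 2-fold (-0.97 to -0.95). In whole seedlings fewer cells of a type and less RNA per cell cannot be told apart, and the part of these markers in the GRF values was not tested.

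None of the 11 GRF probes is among the 3453 probes with a fold in wild type or the 577 with a fold in cry1cry2 that the authors' deposited table lists, although GRF7 was called in wild type here. The folds it lists are at least 2, and its corrected p-values end at 0.0499. Which normalization and filter lie behind it is not given in the sources used here.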

How the data were processed

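Total RNA of Arabidopsis seedlings was labelled with Cy3 and hybridised to 12 one-colour Agilent arrays, 1 per sample. Per the file headers, intensity was extracted by the authors in Agilent Feature Extraction 10.7.3.1. The deposited processed intensity is background-subtracted and spatially detrended but not scaled between arrays. The authors also deposited, for each chemical comparison, a list of unsigned fold changes and corrected p-values, used only to look up the GRF probes.

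Spots of a probe were averaged on the log2 scale, 49 probes were dropped for an outlier spot, and each array was centred on its 75th percentile. A probe was kept if 1 or more groups had it well above background on each of 3 arrays. RefSeq transcript accessions tied 34348 of 43603 probes to loci in a TAIR10.1 table, which gave symbols and neighbours. The array design names the earlier TAIR10 release, so no coordinates are given. The brightest kept probe stood for a gene. Near-identical genes may share signal.

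Group means were fitted to all 12 arrays with limma 3.58.1 (lmFit, eBayes) in R 4.3.3, two-sided, with Benjamini-Hochberg adjustment over 20487 genes. The script was tested on simulated data. Arrays give no counting depth, and their number limits precision. Separate cultures are not stated for samples of a group, so p-values measure the spread between these samples, which may be technical. The GRF members, the pathway and marker lists and the tests were chosen with earlier results of these data known. Named were all members, listed genes called in any comparison or otherwise the 3 with the smallest adjusted p of their list (some given as counts), the 3 genes with a symbol most alike each member, and neighbours. Alternatives were median scaling, quantile normalization, normexp (offset 50), no dim filter or one on all arrays, the mean of probes, slide or replicate number as a block, array weights, and each array left out.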

Additional observations from a re-analysis of the deposited data

Results flagged for a closer look

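For 19 listed or neighbouring genes outside the family the difference with 3B7N itself differed between genotypes by limma's interaction test (difference in cry1cry2 minus that in wild type, log2, called at an adjusted p under 0.05 and at least 2-fold). It was below 0 for 7: HEC1 (-2.31, adjusted p = 0.000192), SPT (-1.75, adjusted p = 0.00017), COL5 (-1.52), ARGOS (-1.49), ARL (-1.26), the 14-3-3 gene AT1G78300 (-1.09) and the KNOX gene KNAT1 (-1.005). It was above 0 for 12: ARR4 (1.003), TCP2 (1.08), CUC3 (1.09), CYCB1;1 (1.10), AT3G52905 next to GRF4 (1.14), CRF2 (1.14), TCP4 (1.14), PLT2 (1.16), CYCA3;1 (1.20), ANT (1.25), TCP10 (1.38) and AT4G24140 next to GRF8 (1.44, adjusted p = 0.000667). Among all genes 18.6% were called in this interaction, beside 13 of the 49 listed genes, 4 of the 20 markers tested and 3 of the 18 neighbours. ANT counts both as listed and as a neighbour. AT4G24140 differed by 2.03 with 3B7N in cry1cry2 and by 0.58 in wild type, whereas HEC1 differed by 0.62 and 2.92. Of 21 alternatives (20 for CUC3 and CYCA3;1) the interaction call held in 6 for TCP4, 7 for PLT2, 11 for ARR4 and TCP2, 13 for KNAT1 and CUC3, 14 for AT1G78300, 16 for CYCB1;1 and 19 or more for the others. ARL was at -0.49 (adjusted p = 0.341) with slide as a block. Groups of 3 arrays are too small for a test of single outlying arrays.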

How the results depend on the processing

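With normexp the interaction values of CYCA3;1 (-0.38), CUC3 (-0.58) and PLT2 (-0.054) turned below 0. No other called value of the genes named here changed direction under the alternatives in which it was tested, while uncalled differences of GRF1, GRF3, GRF5, GRF6, GRF8 and GRF9 changed sign under some. Of 953 values of GRF members under the alternatives, 930 moved by less than the largest SD within a compared group and 23 by more. The 953 include the 3B7N differences within a slide, which equal those with slide as a block, so these values count again. Some alternatives could not move a difference, such as the replicate block, or the mean of probes for a gene with 1 probe. The same holds for leaving out an array of a group not compared. These are part of the 930 and of the counts of alternatives given above. With normexp, called genes fell from 3 to 1 for the GRF members and from 2 to 1 for the listed genes between genotypes on 3B7N, from 8 to 5 for the listed genes with 3B7N in wild type, and from 13 to 6 for them in the interaction. With slide as a block they fell to 0 members and 0 listed genes between genotypes on 3B7N, from 10 to 6 listed genes between genotypes on DMSO (4 of the 10 and 2 others, ROT3 and PPD2), and to 4 in the interaction. The count of 2 listed genes on 3B7N was 1 with quantile normalization, the mean of kept probes or array weights. With only probes above background on all arrays GRF7 was not tested, so the members called were 0 with 3B7N in wild type, 1 between genotypes on DMSO and 0 in the interaction. With each array left out in turn, members called on 3B7N ranged from 1 (without wild type 3B7N replicate 2) to 4, members called in the interaction from 1 to 2 (2 without wild type 3B7N replicate 1), and listed genes called on 3B7N from 1 to 2 (1 without wild type 3B7N replicates 1 or 2 or cry1cry2 3B7N replicate 3).

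Same-numbered arrays deviated from their group means with r between -0.33 and 0.27, not over 0.1 in every pair. The main fit therefore did not pair them, though with so few arrays this cannot exclude shared batches. The replicate block cannot change a difference when each number occurs in every group, so GRF7 stayed at 4.72 with 3B7N in wild type. With it the members called stayed at 1, 0, 2, 3 and 1, and all genes called with 3B7N in wild type were 3046 against 3070.

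Over all genes, median scaling moved the median difference by 0.14 with 3B7N in wild type and by -0.13 between genotypes on 3B7N, and the share of calls that were higher went from 39.3% to 52.7% and from 55.1% to 36.1% (48.9% and 33.0% with normexp). In the interaction that share went from 68.2% to 56.5% with median scaling and 57.5% with normexp, and in cry1cry2 from 56.3% to 41.9% with normexp. Normexp called 1615, 320, 2454, 566 and 2023 genes in place of 3070, 765, 3895, 1491 and 3813, and slide as a block called 316 with 3B7N in cry1cry2 and 46 between genotypes on 3B7N. The cause was not tested. Signals near background limit GRF7 in wild type on DMSO and GRF8 in wild type.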
